A study of Mus musculus with 18 samples.

Results

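The genes that encode the NF-κB transcription factor, the proteins that hold it back or switch it on, and a panel of genes it is known to induce were measured by RNA sequencing in 6 mouse tumor cell lines. The members were picked by gene name from a list of 48, and all 48 were found among the 35275 genes of the count table. The list was chosen with earlier results of these data known. Shares of members beside those of all genes are therefore descriptions and cannot show an enrichment. They comprise 10 NF-κB subunit and IκB genes, 16 upstream genes and 22 induced targets. In background, NF-κB is a dimer of Rel-homology proteins that waits in the cytoplasm, bound by an IκB protein. Signals from cytokine receptors reach the IκB kinase complex through adaptors and ubiquitin ligases, the IκB protein is degraded, and the dimer enters the nucleus and binds κB sites. Several of the genes it induces encode its own inhibitors, and others encode adhesion molecules, proteases, survival factors and early response transcription factors.

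The lines came from malignant peripheral nerve sheath tumors (MPNSTs), soft tissue sarcomas of the nerve sheath that arise after loss of *Nf1*, a negative regulator of Ras. Tumors were started in wild-type mice of the 129 Sv/Jae strain by injecting the sciatic nerve with adenovirus carrying guides and Cas9. The Cas9 was driven by the CMV promoter, which is not specific to a cell type. By label, every line carries the *Nf1* deletion. The *Nf1/p53* dKO lines (labelled *Nf1*-/-;*p53*-/-) also lack *p53*, and the *Nf1/Cdkn2a* dKO lines lack *Cdkn2a* in its place. There were 3 lines of each genotype, each from a separate tumor, and 3 cultures of each line, which gave 18 libraries. The lines had been passaged repeatedly before use. All cells grew untreated in serum-containing medium, so the values are levels in serum with no cytokine added. The comparison between genotypes used the 6 lines as samples (n = 3 per genotype), with the counts of the 3 cultures of a line summed. Levels are in CPM, read counts scaled to a common library size with TMM factors, and a positive log2 fold change means a higher level in the *Nf1/Cdkn2a* dKO. Where 2 sets of 3 levels stand side by side, the first gives lines 1, 2 and 3 of the *Nf1/p53* dKO and the second those of the *Nf1/Cdkn2a* dKO.

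Libraries held 19560535 to 28312207 counts, and summed lines 65206479 to 73065228. *Trp53* lay between 58.7 and 94.1 CPM across the *Nf1/p53* dKO lines, against 184.8 to 246.9 CPM across *Nf1/Cdkn2a* dKO lines (edgeR quasi-likelihood test, adjusted p = 0.0371). *Nf1* and *Cdkn2a* counts overlapped between the genotypes, and gene counts do not show small deletions. Fibroblast and mesenchymal markers were abundant in every line, with a summed level of 9826 to 23622 CPM over 10 genes, while the Schwann cell list summed to 17 to 140.6 CPM over 10 genes. Of these, 8 exceeded 1 CPM in some line, and the defining gene *Sox10* did not exceed 0.099 CPM. Line 3 of the *Nf1/p53* dKO stood apart. It held the highest level of 25.9% and the lowest of 25.5% of the 15207 genes tested, against 9.23 to 18.7% and 11.5 to 17.9% in the other 5 lines. Log2 fold changes without this line are given for the members tested in which it was the highest or the lowest line. In these bulk samples, fewer cells of a type and less RNA per cell cannot be told apart.

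Matches to the κB consensus, the sequence that NF-κB dimers bind, are shown before the levels for members described in the results. The 250 bases before each annotated start were searched on both strands for the 10-base κB consensus, in RefSeq promoters of the GRCm38.p6 build, where 36 of the 48 members matched by symbol. At least 1 match was found for 11 of these 36 genes (30.6%), compared with 8.23% of 27025 genes with a promoter. By group, 4 of 7 subunit and IκB genes, 2 of 14 upstream genes and 5 of 15 induced targets held a match. *Gch1*, *Ier3*, *Pde4b*, *Sphk1* and *Tnfaip2* were the targets with a match. Below, capitals mark the match, lower case its flanks, and the sequence runs 5′ to 3′ on the strand of the gene.
Nfkb2: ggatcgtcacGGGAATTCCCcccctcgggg
Nfkb2, a downstream annotated start: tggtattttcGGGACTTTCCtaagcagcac
Nfkbia: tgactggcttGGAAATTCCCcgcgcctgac
Nfkbie: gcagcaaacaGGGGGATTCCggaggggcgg
Rel: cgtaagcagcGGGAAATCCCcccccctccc
Tnip1: ctccatcatgGGGGAATTCCcctcctgcct
Tnfaip3: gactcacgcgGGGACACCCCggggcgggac
Ier3: tgcgaagggcGGAGTTCCCCccggcccggc
These windows lie at chr19:46304688-46304717 and chr19:46305695-46305724 on the plus strand (*Nfkb2*), chr12:55492657-55492686 on the minus strand (*Nfkbia*), chr17:45555584-45555613 on the plus strand (*Nfkbie*), chr11:23771042-23771071 on the minus strand (*Rel*), chr11:54962979-54963008 on the minus strand (*Tnip1*), chr10:19015516-19015545 on the minus strand (*Tnfaip3*) and chr17:35821611-35821640 on the plus strand (*Ier3*). The match in *Nfkbia*, the inhibitor gene that NF-κB itself induces, ended 20 bases before the start. A match describes the letters only and is not a measured binding site. The promoters of *Nfkb1*, *Relb*, *Nfkbiz*, *Ikbkb*, *Ripk2*, *Tnfaip8*, *Vcam1*, *Plau*, *Tnfsf9*, *Ier2*, *Cebpd* and *Klf10* were not searched.

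Between the genotypes, the subunit and IκB genes leaned toward higher levels in the *Nf1/p53* dKO lines. With edgeR none passed the threshold of 0.05 on the adjusted p. Of the 10 genes, 8 had a fitted log2 fold change below 0, with a median of -0.44, beside -0.02 over all 15207 genes tested. Without line 3 of the *Nf1/p53* dKO, 8 were still below 0, and the median was -0.27. By the edgeR quasi-likelihood test on the 6 lines, 94 genes (0.618%) rose and 171 (1.12%) fell in the *Nf1/Cdkn2a* dKO over the whole table, 1.74% in all, and scaling by total counts alone gave 81 and 299. At an unadjusted p under 0.05 were 3 of the 10, with 22.3% of all genes at that level. DESeq2 on the 6 lines called 2 of the 10, *Rel* and *Bcl3*, beside 14.3% of all genes. Limma-voom on the 18 cultures, with line as a random effect, called 2 others, *Nfkb1* and *Nfkbie*, beside 16.6% of the genes it tested.

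**Figure D1:**
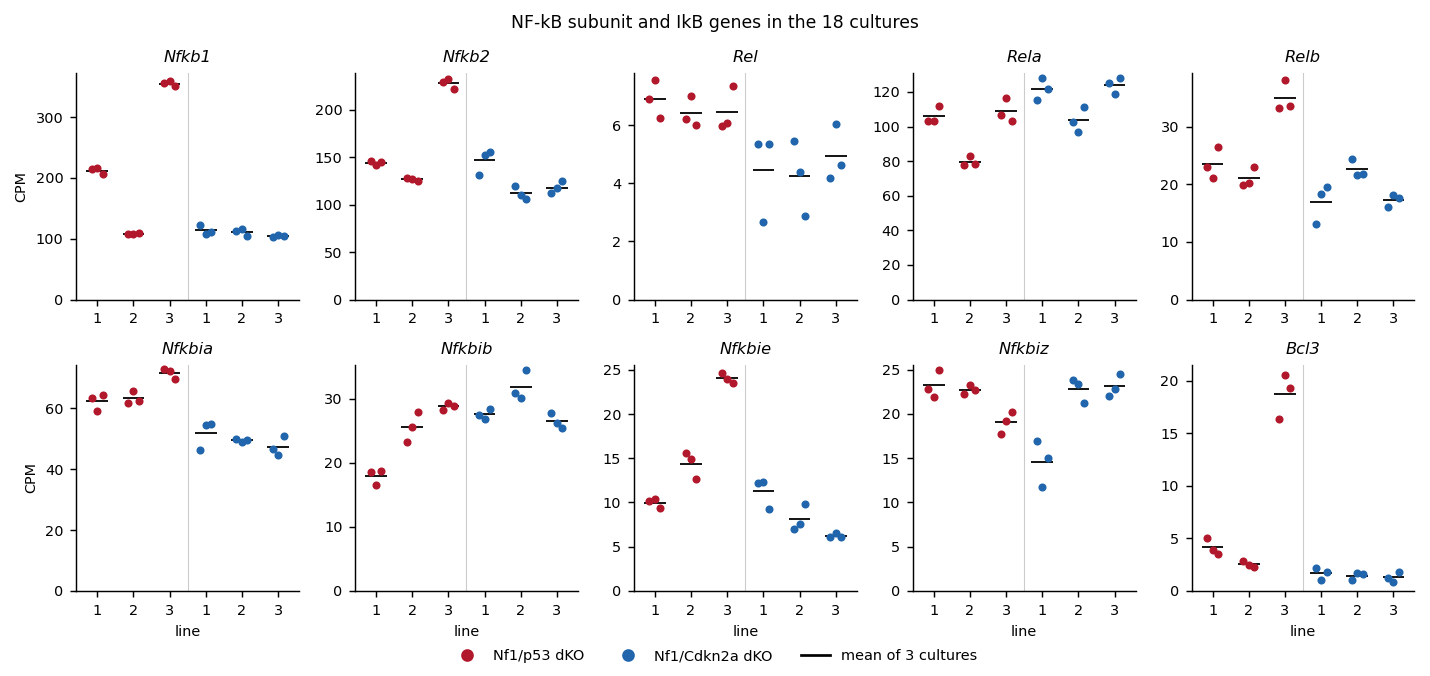
Levels of the 10 NF-κB subunit and IκB genes (CPM) in each of the 18 cultures, by line and genotype, with the mean of the 3 cultures of a line as a bar. Line 3 of the *Nf1/p53* dKO is the highest line for *Nfkb1*, *Nfkb2*, *Relb*, *Nfkbia*, *Nfkbie* and *Bcl3*, and the *Nf1/Cdkn2a* dKO lines of *Nfkb1* and *Bcl3* lie close together.

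*Nfkb1* encodes p105, the precursor of the p50 subunit. Its level was 211, 108 and 355 CPM in lines 1, 2 and 3 of the *Nf1/p53* dKO and 114, 111 and 105 CPM in those of the *Nf1/Cdkn2a* dKO. The log2 fold change was -1.03 ± 0.40 (SE, adjusted p = 0.198). Lines 1 and 3 of the *Nf1/p53* dKO were high, and line 2 lay among the *Nf1/Cdkn2a* dKO lines, so the groups overlapped. Without line 3 the value was -0.53. The 3 *Nf1/p53* dKO lines differed from each other by 3.28-fold, while the *Nf1/Cdkn2a* dKO lines spanned 1.09-fold.

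*Nfkb2* encodes p100, the precursor of p52 in the alternative pathway, and *Relb* its usual partner. *Nfkb2* stood at 143, 126 and 228 CPM and 147, 113 and 118 CPM in the 2 genotypes. *Relb* stood at 23.3, 21 and 35 CPM and 17.1, 22.8 and 17.4 CPM. Both were highest in line 3 of the *Nf1/p53* dKO, and both overlapped between genotypes, at log2 fold changes of -0.39 ± 0.25 and -0.47 ± 0.25. Without line 3 these became -0.09 and -0.21. *Nfkb2* shares 830 of its 4584 exon bases with exons on the opposite strand, including those of *Psd*, and *Psd* was also highest in that line at 31.4 CPM. Whether the counting used strand is not stated in the sources used here, so reads of the pair cannot be told apart. Shorter overlaps with opposite exons exist for *Bcl3*, *Ikbke*, *Tnfaip2*, *Tnfsf9*, *Icam1*, *Vcam1*, *Sphk1* and *Zfp36*, and a longer one for *Tnfaip8*.

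*Rela* encodes p65, the main activating subunit. It was at 105, 79.5 and 109 CPM across the *Nf1/p53* dKO lines, against 122, 103 and 125 CPM across *Nf1/Cdkn2a* dKO lines, with overlap and a log2 fold change of 0.25 ± 0.17. *Rel*, which encodes c-Rel and is best known from lymphocytes, was at 6.90, 6.41 and 6.45 CPM and 4.54, 4.36 and 4.94 CPM. Its lines did not overlap, all 3 *Nf1/p53* dKO lines being higher, and the log2 fold change was -0.51 ± 0.23 (adjusted p = 0.259). Levels were also divided by the merged length of all annotated exons, which can exceed that of the transcript in use. That length was 12061 bases for *Nfkb1*, 4584 for *Nfkb2* and 3072 for *Rela*, so the order of genes depends on it. Per kilobase, *Rela* had 31.9 and *Nfkb2* 36.2 CPM per kb on average in the *Nf1/p53* dKO, and the lines of these 2 genes overlapped. In the *Nf1/Cdkn2a* dKO the order was *Rela* at 38.0 and then *Nfkb2* at 27.5 CPM per kb, and the lines did not overlap. *Nfkb1* came next at 18.6 CPM per kb in the *Nf1/p53* dKO, against 9.13 in the *Nf1/Cdkn2a* dKO. Before division by length its mean in the *Nf1/p53* dKO was the highest of the 3, at 225 CPM, against 166 for *Nfkb2* and 97.9 for *Rela*. *Relb* followed at 6.81 and 4.91, and *Rel* at 0.882 and 0.618 CPM per kb.

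Among the inhibitors, *Nfkbia*, which encodes IκBα, was tightly grouped. It was at 61.8, 63.3 and 71.6 CPM across the *Nf1/p53* dKO lines, against 51.9, 49.6 and 47.6 CPM across *Nf1/Cdkn2a* dKO lines. All 3 *Nf1/p53* dKO lines were higher, by a log2 fold change of -0.40 ± 0.13 (adjusted p = 0.142), and the value without line 3 was -0.33. For this gene 81.6% of the variation of log2(CPM + 0.5) over the 18 cultures lay between the genotypes, beside a median of 22.8% over all genes tested. That share includes any chance difference between 2 sets of 3 lines. *Nfkbib* (IκBβ) leaned the other way at 17.7, 25.5 and 28.8 CPM and 27.6, 31.7 and 26.6 CPM, with overlap. *Nfkbie* (IκBε) was at 9.95, 14.4 and 24 CPM and 11.2, 8.05 and 6.27 CPM, a log2 fold change of -0.92 ± 0.39 that became -0.51 without line 3 of the *Nf1/p53* dKO. *Nfkbib* has 356 of 2169 exon bases opposite other exons, including those of *Sirt2*.

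The nuclear IκB genes among the members behaved apart. *Bcl3*, which encodes a co-activator of p50 and p52 dimers, was at 4.07, 2.53 and 18.8 CPM across the *Nf1/p53* dKO lines, against 1.70, 1.43 and 1.31 CPM across *Nf1/Cdkn2a* dKO lines. Line 3 of the *Nf1/p53* dKO had 5.69 times the mean of lines 1 and 2, yet lines 1 and 2 were also above every *Nf1/Cdkn2a* dKO line. The log2 fold change was -2.51 ± 0.78 (adjusted p = 0.134), and -1.15 without line 3 (adjusted p = 0.17). *Nfkbiz* (IκBζ), a secondary-response regulator, was at 23, 22.7 and 19 CPM and 14.7, 23 and 23.2 CPM. Its genotypes overlapped, with the lowest level in line 1 of the *Nf1/Cdkn2a* dKO.

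Of the muscle, Schwann cell and fibroblast marker lists, only the muscle list separated the genotypes by its summed level. For muscle, the summed level over 10 genes was 54.2 to 418 CPM across the *Nf1/p53* dKO lines, with the highest sum in line 3, and 0.266 to 0.834 CPM across *Nf1/Cdkn2a* dKO lines, and *Myf5* and *Cdh15* fell with adjusted p = 0.00676 and 0.0202. The Schwann cell list summed to 30.4 to 140.6 CPM and 17 to 48.6 CPM, and edgeR called none of the 8 tested (3 at an unadjusted p under 0.05, and 2 called by DESeq2). Of the fibroblast and mesenchymal genes, edgeR called *Dcn* alone, which encodes the matrix proteoglycan decorin and fell from 119, 104 and 934 CPM to 3.40, 6.59 and 4.29 CPM (adjusted p = 0.0492), a log2 fold change of -6.34 that became -4.55 without line 3 of the *Nf1/p53* dKO. The part of these markers in the member results was not tested.

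The upstream genes split in direction between members. Of the 16, 15 were tested, and none passed the adjusted threshold with edgeR, although 8 had an unadjusted p under 0.05, beside 22.3% of all genes. DESeq2 on the 6 lines called 6 (*Tnfrsf1a*, *Chuk*, *Ikbke*, *Traf1*, *Cflar* and *Tnip2*), beside 14.3%. The genotypes did not overlap for 9 of the 15, beside 31.4% of all genes tested. Among them 5 were higher in every *Nf1/Cdkn2a* dKO line (*Tnfrsf1a*, *Chuk*, *Ikbke*, *Cflar* and *Tnfaip3*) and 4 were lower (*Traf1*, *Traf2*, *Tnip1* and *Tnip2*).

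**Figure D2:**
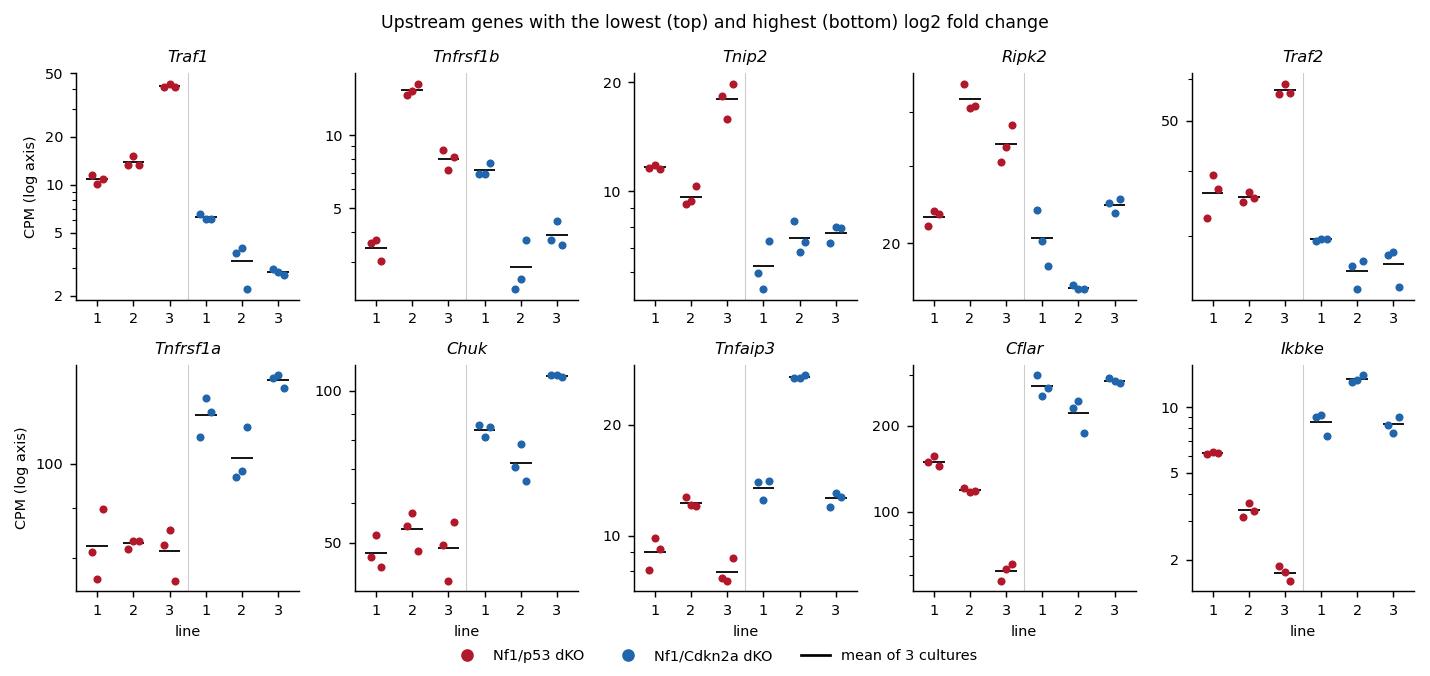
Levels of the 10 upstream genes with the lowest (top row) and highest (bottom row) log2 fold changes, in CPM on a log axis, for the 18 cultures by line, with the mean of 3 cultures as a bar. *Traf1* is highest in line 3 of the *Nf1/p53* dKO at 42 CPM, and *Cflar* and *Ikbke* are lowest in that line.

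Of the ligand and its receptors, *Tnf* was close to silent. The gene of tumor necrosis factor had 87 counts in line 3 of the *Nf1/p53* dKO (38, 36 and 13 in its cultures), 3 counts in line 2 and none in line 1, and 0, 0 and 3 counts in the *Nf1/Cdkn2a* dKO lines. A count of 0 allows up to 3 counts, for counting error alone. It did not pass the filter on low counts and has no fold change here, and among the *Nf1/p53* dKO lines it differed with an adjusted p of 6.2e-06. *Tnfrsf1a*, the widely expressed TNF receptor, was at 81.5, 82.8 and 81.4 CPM across the *Nf1/p53* dKO lines, against 112, 101 and 122 CPM across *Nf1/Cdkn2a* dKO lines. It was higher in all 3 *Nf1/Cdkn2a* dKO lines by a log2 fold change of 0.45 ± 0.13 (adjusted p = 0.108), and by 0.45 without line 3 of the *Nf1/p53* dKO. *Tnfrsf1b*, the second TNF receptor, was at 3.43, 15.3 and 7.97 CPM and 7.22, 2.81 and 3.89 CPM with overlap, and its highest line was line 2 of the *Nf1/p53* dKO.

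The IκB kinase complex holds 2 catalytic subunits, from *Chuk* and *Ikbkb*, and the regulatory subunit NEMO, from *Ikbkg*. *Chuk* was at 47.8, 53.2 and 48.7 CPM across the *Nf1/p53* dKO lines, against 83.9, 72.2 and 107 CPM across *Nf1/Cdkn2a* dKO lines, for a log2 fold change of 0.82 ± 0.18 (adjusted p = 0.0691). *Ikbkb* showed no such separation, at 45.9, 43.5 and 45.2 CPM and 48.6, 55.4 and 38 CPM. *Ikbkg* was at 37.1, 44.6 and 57.3 CPM and 67.1, 52.3 and 61.7 CPM, with overlap, and 418 of its 8110 exon bases lie opposite exons of *G6pdx*, a gene at 108 to 196.3 CPM. *Ikbke*, an IκB kinase-related kinase, was at 6.14, 3.37 and 1.74 CPM and 8.49, 13.5 and 8.38 CPM, higher in every *Nf1/Cdkn2a* dKO line by a log2 fold change of 1.43 ± 0.50 (adjusted p = 0.164), and 1.10 without line 3 of the *Nf1/p53* dKO. *Ripk2*, the kinase of the NOD receptors, leaned toward the *Nf1/p53* dKO at 22.9, 42.8 and 33.7 CPM and 20.5, 15.9 and 24.6 CPM, with overlap.

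*Traf1*, an adaptor that NF-κB induces, had the lowest log2 fold change of the upstream genes. Its level was 10.7, 13.9 and 42 CPM across the *Nf1/p53* dKO lines, against 6.26, 3.36 and 2.83 CPM across *Nf1/Cdkn2a* dKO lines, and the log2 fold change was -2.42 ± 0.62 (adjusted p = 0.0937). Line 3 of the *Nf1/p53* dKO was the highest, and without it the value was -1.56 (adjusted p = 0.12). *Traf2*, its binding partner at TNF receptors, was also highest in line 3, at 36.4, 35.6 and 57.3 CPM and 29.6, 25.7 and 26.6 CPM, a log2 fold change of -0.66 ± 0.22 and -0.39 without line 3. So were the genes of the ubiquitin-binding inhibitors *Tnip1* and *Tnip2*. *Tnip1* was at 41.8, 51.8 and 70 CPM and 41.5, 36.9 and 38.2 CPM, a log2 fold change of -0.49 ± 0.21 and -0.26 without line 3. *Tnip2* was at 11.6, 9.63 and 17.9 CPM and 6.30, 7.51 and 7.73 CPM, a log2 fold change of -0.86 ± 0.29 and -0.56 without line 3. For these 4 genes the *Nf1/Cdkn2a* dKO lines were all below the *Nf1/p53* dKO lines, although the gap for *Tnip1* was small, between 41.5 and 41.8 CPM.

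*Cflar* encodes cFLIP, an inhibitor of caspase-8. It was at 149, 119 and 62 CPM across the *Nf1/p53* dKO lines, against 276, 223 and 288 CPM across *Nf1/Cdkn2a* dKO lines, for a log2 fold change of 1.25 ± 0.32 (adjusted p = 0.0953) and 0.97 without line 3 of the *Nf1/p53* dKO, its lowest line. *Tnfaip3*, which encodes the deubiquitinase A20, was at 9.07, 12.3 and 7.96 CPM and 13.6, 27 and 12.7 CPM. The *Nf1/Cdkn2a* dKO lines were all higher, and line 2 was well above the other 2. Its log2 fold change was 0.86 ± 0.36, and 0.74 without line 3 of the *Nf1/p53* dKO. *Birc2* and *Birc3*, which encode the ubiquitin ligases cIAP1 and cIAP2, ranged over 16.3 to 23.8 CPM and 12.1 to 16.1 CPM, with fitted log2 fold changes of -0.05 and 0.06. Without line 3 of the *Nf1/p53* dKO, the highest for *Birc2*, that gene was at 0.11.

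The induced targets held the only member past the threshold. A place on this panel does not say which regulator moved a gene. The paper that reported these lines found p53 pathway genes enriched in the *Nf1/Cdkn2a* dKO, and the part of p53 in these targets was not tested. *Ier5*, an immediate early gene, rose in the *Nf1/Cdkn2a* dKO. Its level was 66, 61.9 and 40.7 CPM in lines 1, 2 and 3 of the *Nf1/p53* dKO (56.2 ± 13.6, SD, n = 3) and 134, 176 and 180.2 CPM across *Nf1/Cdkn2a* dKO lines (164 ± 25.5, SD, n = 3). The groups did not overlap. The log2 fold change was 1.54 ± 0.23 (SE, adjusted p = 0.0408, edgeR quasi-likelihood test). *Ier5* lies on the minus strand of GRCm38 at chr1:155096361-155099636, and 87.6% of its variation over the 18 cultures lay between genotypes. With any 1 of the 6 lines left out, the log2 fold change stayed between 1.36 and 1.67 while the adjusted p rose to between 0.0515 and 0.13, above the threshold. Over the 47 members tested this was 1 call upward and 0 downward, beside 0.618% and 1.12% of all genes. At an unadjusted p under 0.05 were 24 members, 14 of them higher and 10 lower, beside 9.81% of all genes higher and 12.5% lower. Because of how the list was chosen, these shares do not test the members against all genes. DESeq2 on the same 6 lines called 17 members, 11 higher and 6 lower, beside 14.3% of all genes, and limma-voom on the 18 cultures with line as a random effect called 21 of 46, beside 16.6%.

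**Figure D3:**
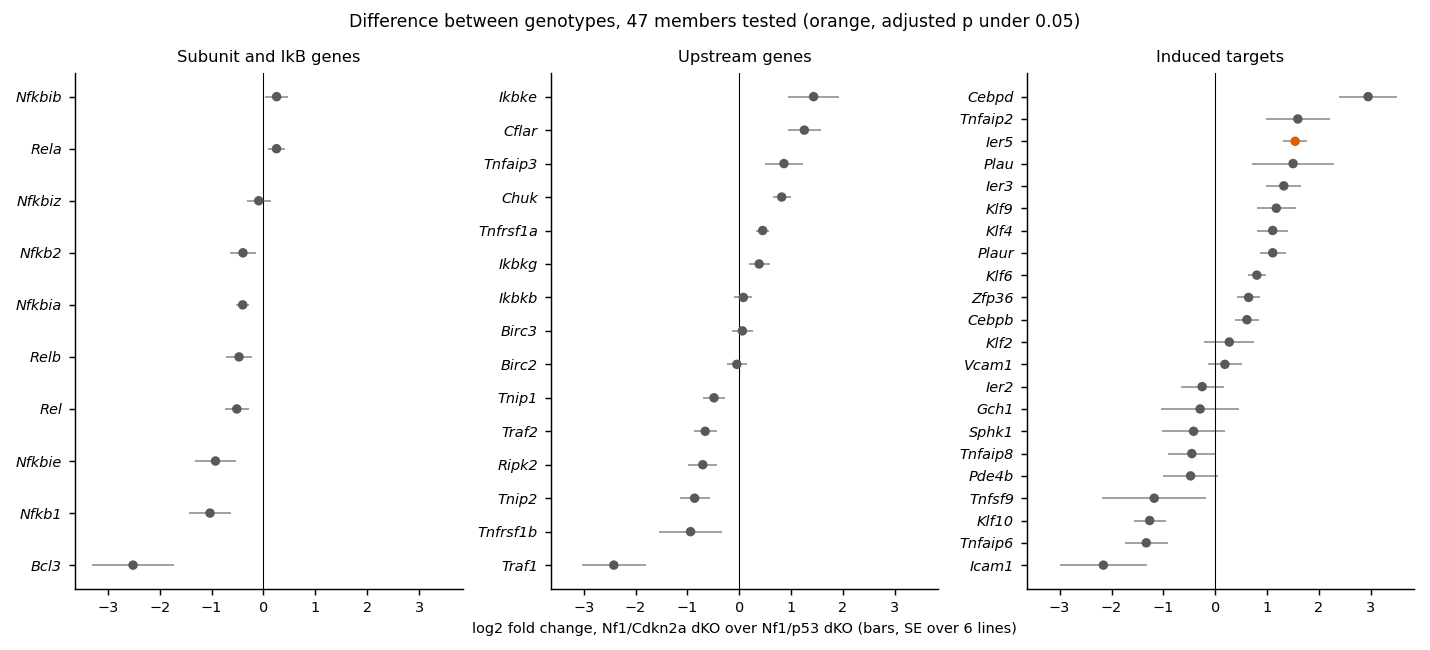
Log2 fold change of each of the 47 members tested (horizontal axis, positive where higher in the *Nf1/Cdkn2a* dKO), with the SE over the 6 lines as bars, in 3 panels by group. *Ier5* at 1.54 is the only orange point (adjusted p under 0.05), the 10 subunit and IκB genes have a median of -0.44, and the induced targets one of 0.44. Within the targets the median is 0.80 for the 11 early response and transcription factor targets and -0.42 for the other 11. The groups are not exclusive, as *Nfkbia* and *Traf1*, which NF-κB also induces, stand outside the induced targets.

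The early response and transcription factor targets leaned upward as a group. Of 11, 9 had a fitted log2 fold change above 0, with a median of 0.80, beside 7332 of 15207 genes above 0 in all. In 7 of the 11 every *Nf1/Cdkn2a* dKO line was the higher, beside 14.8% of all genes. Without line 3 of the *Nf1/p53* dKO, 9 were above 0, with a median of 0.76. The other 11 targets had 4 above 0 and a median of -0.42. *Cebpd*, an acute-phase transcription factor, was at 15.6, 12 and 5.05 CPM across the *Nf1/p53* dKO lines, against 40.4, 96.1 and 116 CPM across *Nf1/Cdkn2a* dKO lines. Its log2 fold change of 2.95 ± 0.55 was the highest of all members, with adjusted p = 0.0545, just above the threshold, and it was 2.61 without line 3 of the *Nf1/p53* dKO, the lowest line. *Cebpd* has 562 of 3746 exon bases opposite those of *Spidr*, which was at 14.7 to 32.1 CPM. Its relative *Cebpb* was at 38.4, 31.9 and 46.3 CPM and 44.2, 61.9 and 72.1 CPM, with overlap, and has 312 of 1504 exon bases opposite those of *Tmem189*.

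*Ier3*, an early response gene that modulates cell survival, was at 104, 59.8 and 89.9 CPM across the *Nf1/p53* dKO lines, against 202, 298 and 135 CPM across *Nf1/Cdkn2a* dKO lines. All *Nf1/Cdkn2a* dKO lines were higher, by a log2 fold change of 1.32 ± 0.34 (adjusted p = 0.0948). *Ier2*, from the same class, did not separate and ranged from 37 to 105 CPM, with its highest level in line 3 of the *Nf1/p53* dKO. Its log2 fold change was -0.25 ± 0.41, and 0.21 without that line. *Zfp36*, which encodes the mRNA-decay factor tristetraprolin, was at 18.9, 20.2 and 21.5 CPM and 24.7, 29.4 and 40.7 CPM, higher in all 3 *Nf1/Cdkn2a* dKO lines.

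Among the Krüppel-like factors, *Klf4*, *Klf6* and *Klf9* were higher in every *Nf1/Cdkn2a* dKO line and *Klf10* was lower in every one. *Klf6* was at 110.1, 119 and 80.3 CPM and 171, 189.8 and 178 CPM in the *Nf1/p53* dKO and *Nf1/Cdkn2a* dKO lines, for a log2 fold change of 0.80 ± 0.18 (adjusted p = 0.0713), and 0.65 without line 3 of the *Nf1/p53* dKO. *Klf4*, a factor of quiescence and pluripotency, was at 119.8, 67.8 and 55.9 CPM and 197, 179 and 149 CPM, a log2 fold change of 1.11 ± 0.30. Its adjusted p was 0.106. With 1 line left out the adjusted p passed the threshold only without line 1 of the *Nf1/p53* dKO (0.048, log2 fold change 1.5), and lay between 0.152 and 0.256 without any other. Without line 3, its lowest, the log2 fold change was 0.91. *Klf9*, a glucocorticoid-responsive factor, was at 26.4, 29.7 and 18.3 CPM and 55.3, 30.5 and 82.3 CPM, and line 2 of the *Nf1/Cdkn2a* dKO lay just above the highest *Nf1/p53* dKO line. The log2 fold change of *Klf9* was 1.18 ± 0.38, and 1.00 without line 3 of the *Nf1/p53* dKO. *Klf10*, also known as TIEG1 and induced by TGF-β, was at 76.4, 84.6 and 95.5 CPM and 53.8, 25.9 and 27.1 CPM, a log2 fold change of -1.26 ± 0.31 (adjusted p = 0.0883), and -1.17 without that line. *Klf2*, a factor known from endothelium, overlapped at 23.4, 28.8 and 7.26 CPM and 24.7, 19.4 and 27.6 CPM, and its low value was in line 3 of the *Nf1/p53* dKO. Its log2 fold change was 0.27 ± 0.48, and -0.12 without that line.

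**Figure D4:**
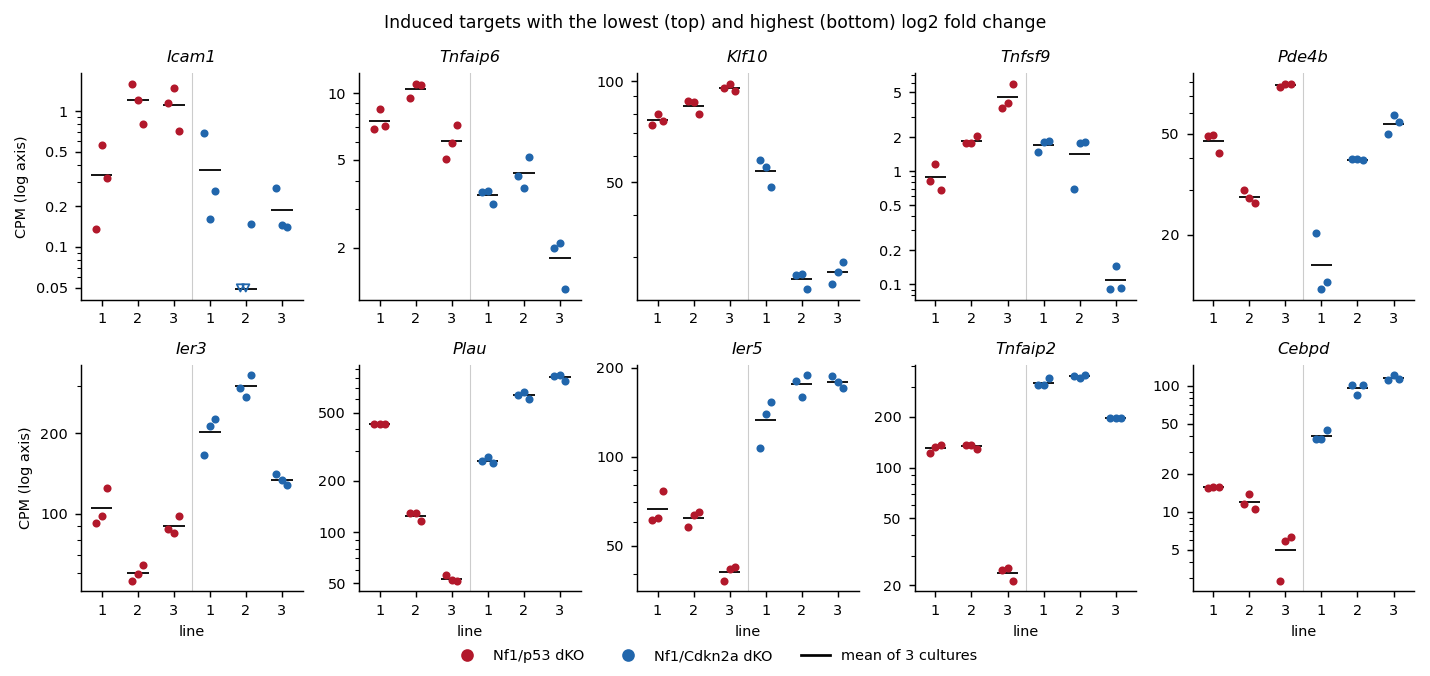
Levels of the 10 induced targets with the lowest (top row) and highest (bottom row) log2 fold changes, in CPM on a log axis, for the 18 cultures by line, with the mean of 3 cultures as a bar and open triangles for cultures with 0 counts. *Ier5*, *Ier3*, *Tnfaip2* and *Cebpd* are higher in every *Nf1/Cdkn2a* dKO line, and *Klf10* and *Tnfaip6* are lower in every one.

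The urokinase system gave 2 members. *Plaur*, the urokinase receptor, was at 93.9, 103 and 83.1 CPM across the *Nf1/p53* dKO lines, against 199, 266 and 138 CPM across *Nf1/Cdkn2a* dKO lines, with no overlap and a log2 fold change of 1.11 ± 0.25 (adjusted p = 0.0769), and 1.04 without line 3 of the *Nf1/p53* dKO. *Plau*, which encodes urokinase itself, was at 428, 125 and 53.2 CPM and 262, 638 and 814 CPM. The genotypes overlapped because line 1 of the *Nf1/p53* dKO was above line 1 of the *Nf1/Cdkn2a* dKO, and the means stood at a ratio of 2.83 with an adjusted p of 0.314. The log2 fold change of *Plau* was 1.5, and with 1 line left out it ranged from 1.05 without line 3 of the *Nf1/p53* dKO, the lowest line, to 2.68 without line 1.

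*Tnfaip2*, a TNF-induced gene of membrane tube formation, was at 130.2, 134 and 23.8 CPM and 321, 349 and 198 CPM. All *Nf1/Cdkn2a* dKO lines were higher, and line 3 of the *Nf1/p53* dKO had 0.18 times the mean of lines 1 and 2. The log2 fold change was 1.59 ± 0.62 (adjusted p = 0.201), and 1.14 without that line (adjusted p = 0.107). *Tnfaip6*, a hyaluronan-binding protein gene, lay the other way at 7.51, 10.5 and 6.06 CPM and 3.43, 4.33 and 1.80 CPM, a log2 fold change of -1.33 ± 0.41 (adjusted p = 0.132). *Tnfaip8* did not separate, with lines from 7.77 to 23.3 CPM.

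The adhesion genes were far apart in level. *Vcam1* was at 256, 109 and 185 CPM and 263, 193 and 169 CPM, with overlap and a log2 fold change of 0.19 ± 0.33. *Icam1*, a classical NF-κB target, was at 0.361, 1.20 and 1.12 CPM and 0.369, 0.0433 and 0.188 CPM, so no line exceeded 1.2 CPM. Per kilobase of exon, *Vcam1* averaged 20.7 CPM per kb in the *Nf1/p53* dKO and *Icam1* 0.205. The low counts of *Icam1* put the SE of its log2 fold change at 0.84 around -2.16, and 2 cultures held 0 counts.

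Of the remaining targets, none separated the genotypes. *Gch1*, the first enzyme of tetrahydrobiopterin synthesis, had 24.8 CPM in line 1 of the *Nf1/p53* dKO and 3.63 and 4.73 CPM in lines 2 and 3. *Sphk1*, the sphingosine kinase gene, was lowest in line 2 of the *Nf1/Cdkn2a* dKO at 5.19 CPM and was 25.5 CPM in line 3. *Pde4b*, a cyclic AMP phosphodiesterase gene, was at 46.6, 28.2 and 77.7 CPM and 15.2, 39.6 and 54.9 CPM, a log2 fold change of -0.48 ± 0.54 that became -0.03 without line 3 of the *Nf1/p53* dKO. *Tnfsf9*, the ligand of 4-1BB, was at 0.902, 1.85 and 4.51 CPM and 1.72, 1.38 and 0.109 CPM, a log2 fold change of -1.18 ± 1.00 that became -0.36 without line 3 of the *Nf1/p53* dKO. These genes varied between lines of the same genotype more than between genotypes.

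Leukocyte markers were low but not even. Summed over 12 genes they reached 4.11 to 8.11 CPM across the *Nf1/p53* dKO lines, against 9.71 to 18.2 CPM across *Nf1/Cdkn2a* dKO lines. Only *Cd68*, *Csf1r* and *S100a8* exceeded 1 CPM in any line, with *Cd68* between 1.96 and 7.14 and *Csf1r* between 0.721 and 3.17 CPM. *S100a8* had 0.0138 to 0.284 CPM across the *Nf1/p53* dKO lines, against 2.94 to 9.85 CPM across *Nf1/Cdkn2a* dKO lines. The defining gene *Ptprc* did not exceed 0.563 CPM, and *Tyrobp* and *Adgre1* did not exceed 0.0283 CPM. The endothelial list summed to 2.84 to 6.5 CPM and 3.95 to 6.5 CPM. Its members above 1 CPM in any line were *Egfl7* (0.581 to 5.02 CPM), *Cdh5* (0.166 to 1.69 CPM) and *Tek*, which fell from 0.412 to 1.08 CPM across the *Nf1/p53* dKO lines to 0.0642 to 0.0782 CPM (adjusted p = 0.0492, and 0.0795 without line 3). The part of these cell types in the member results was not tested.

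Lines of 1 genotype differed widely. The test for any difference among the 3 lines of a genotype used the 9 cultures, so it compares those lines and not the genotype. Among the *Nf1/p53* dKO lines 42 of 48 members (87.5%) passed an adjusted p of 0.05, beside 73.1% of 14690 genes. Among the *Nf1/Cdkn2a* dKO lines 37 of 48 members (77.1%) passed, beside 56.6%. By group, 9 of 10 subunit and IκB genes, 13 of 16 upstream genes and 20 of 22 targets passed in the former genotype, and 6, 10 and 21 in the latter. The median ratio of the highest to the lowest line was 1.77 over the members for the *Nf1/p53* dKO and 1.55 for the *Nf1/Cdkn2a* dKO, on CPM + 0.5, beside 1.5 and 1.31 over all genes.

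Among the *Nf1/p53* dKO lines the 6 members that did not pass were *Rel*, *Tnfrsf1a*, *Ikbkb*, *Chuk*, *Zfp36* and *Cebpb*. *Ikbkb* and *Chuk* passed among the *Nf1/Cdkn2a* dKO lines (adjusted p = 7.16e-06 and 3.01e-06). There the 11 that did not pass were *Nfkb1*, *Rel*, *Nfkbia*, *Bcl3*, *Tnf*, *Traf2*, *Birc2*, *Birc3*, *Tnip1*, *Tnip2* and *Klf6*. *Nfkb1* had an adjusted p of 1.63e-20 among the *Nf1/p53* dKO lines and 0.13 among those of the *Nf1/Cdkn2a* dKO. Whether the spread itself differed between the genotypes was not tested.

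**Figure D5:**
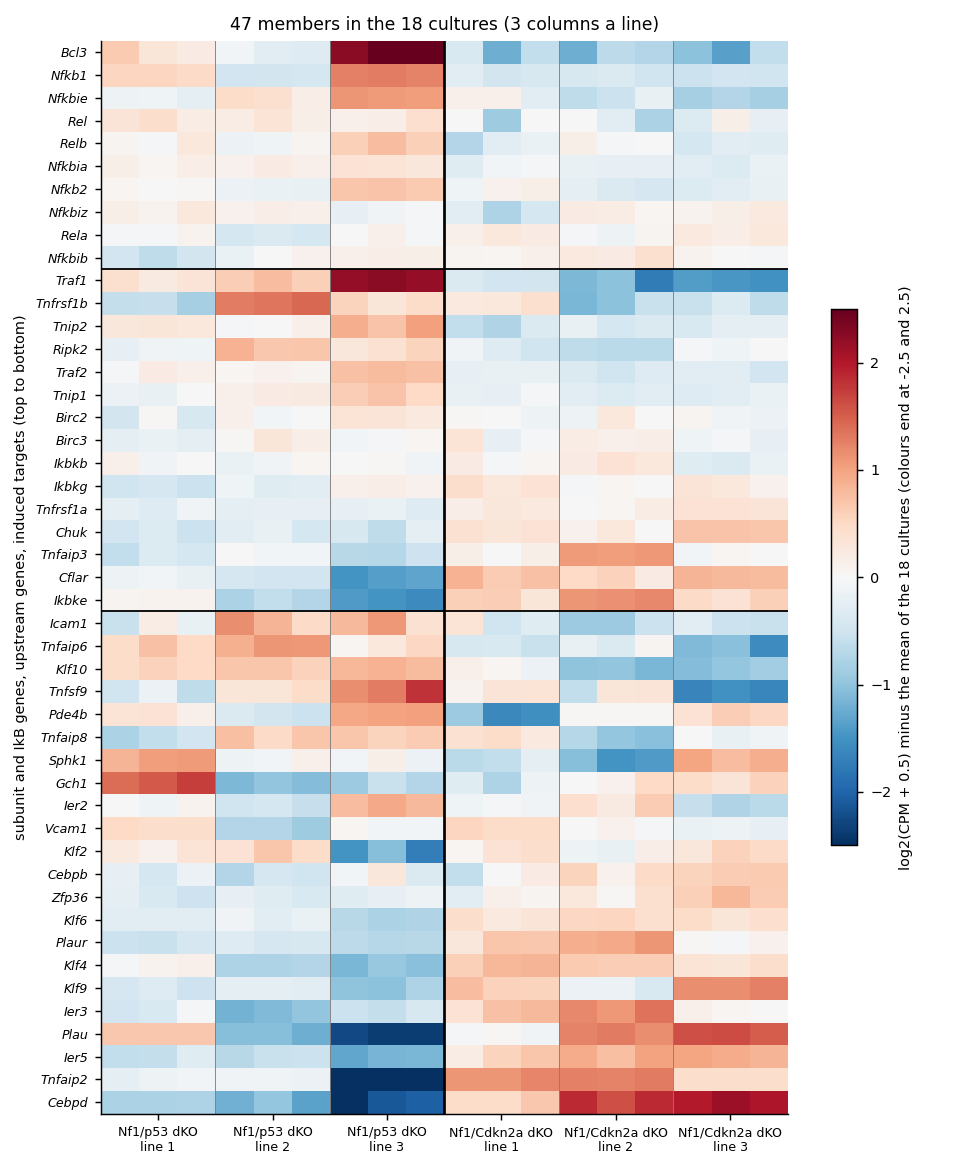
Log2(CPM + 0.5) of the 47 members tested in the 18 cultures, each row centred on its mean, with 3 columns a line and rows ordered by log2 fold change within the 3 groups. Line 3 of the *Nf1/p53* dKO holds the highest level of 15 members, among them *Bcl3* and *Traf1*, and the lowest of 13, among them *Plau* and *Tnfaip2*.

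Line 3 of the *Nf1/p53* dKO divided the members. It held the highest level of 6 of the 10 subunit and IκB genes (60%) and the lowest of none, where its shares over all genes were 25.9% and 25.5%. Among the upstream genes it was the highest for 5 of 15 (*Traf1*, *Traf2*, *Tnip1*, *Tnip2* and *Birc2*) and the lowest for 4, among them *Cflar* and *Ikbke*. Among the induced targets the balance was 4 highest and 9 lowest, the latter including *Tnfaip2*, *Plau*, *Cebpd*, *Ier5*, *Klf2* and *Klf4*. Over the 18 cultures, the median share of variation was 50.6% between genotypes, 44.6% between lines and 3.84% between cultures for the members, beside 22.8%, 47.9% and 12.9% for all genes tested. In 23 of the 47 members (48.9%) the 2 genotypes had no overlap, 14 higher and 9 lower, beside 31.4% of all genes.

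The pathway was also followed in 83 genes outside the members. Of these 70 were tested, with 1 called higher and 2 lower, beside 0.618% and 1.12% of all genes, and the median log2 fold change was -0.04. With edgeR none of 16 receptors and ligands tested passed (9 at an unadjusted p under 0.05, and 9 called by DESeq2, beside 22.3% and 14.3% of all genes), nor did any of 30 kinases, adaptors and ubiquitin genes (7 at an unadjusted p under 0.05, and 2 called by DESeq2). The highest and lowest of the receptors and ligands were *Tnfrsf11a* (RANK) at a log2 fold change of 3.18 ± 0.75 and *Il33* at -6.89 ± 1.61. *Il33*, an alarmin cytokine gene, had 46.2, 17 and 649 CPM across the *Nf1/p53* dKO lines, against 0.818, 2.61 and 2.58 CPM across *Nf1/Cdkn2a* dKO lines. Without line 3 of the *Nf1/p53* dKO its log2 fold change was -3.97. Among the kinases and adaptors the ends were *Map3k8* at 0.99 ± 0.46 and the inhibitor gene *Nfkbid* at -1.87 ± 0.69, which did not exceed 0.773 CPM.

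The 3 calls were all among 24 induced genes tested, and with 1 of the 6 lines left out the pathway genes gave 0 to 2 calls. *Sele*, which encodes the adhesion molecule E-selectin, rose from 0.387, 0.509 and 0.526 CPM across the *Nf1/p53* dKO lines to 13.6, 8.91 and 4.63 CPM across *Nf1/Cdkn2a* dKO lines (adjusted p = 0.028). *Cxcl10* fell from 21.5, 11.2 and 20.9 CPM to 1.09, 1.10 and 1.28 CPM (adjusted p = 0.0198), and *Ccl5* fell from 16, 4.64 and 41.9 CPM to 0.417, 0.447 and 0.266 CPM (adjusted p = 0.0432). Both encode chemokines that attract T cells. Without line 3 of the *Nf1/p53* dKO the adjusted p was 0.0575 for *Sele*, 0.0379 for *Cxcl10* and 0.0515 for *Ccl5*, and the log2 fold change of *Ccl5* moved from -5.78 to -4.76. *Ptgs2*, not called with all 6 lines, passed in that edgeR fit at a log2 fold change of 3.57 (adjusted p = 0.0379). *Mmp3*, a stromelysin gene, had the highest fitted log2 fold change of this list at 4.99 ± 0.97 (adjusted p = 0.0572), with 23.4, 10.3 and 5.71 CPM and 71.5, 591 and 593 CPM. Of these 24 induced genes 16 had a fitted log2 fold change below 0.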

How the data were processed

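RNA was sequenced from 18 cultures of 6 mouse MPNST lines. The deposited counts are whole numbers of reads per gene, not normalized. Per the labels the submitters' processing notes name CASAVA, STAR 2.5 and DESeq2 1.14.1, with the builds GRCm38 and mm10. The counting tool, annotation and strand setting are not given in the sources used here. Cultures of 1 line differed beyond sampling noise (chi-square per degree of freedom 3.57 to 29.2), and none was merged as a duplicate.

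Counts of the 3 cultures of a line were summed, because a line is 1 tumor. Genes were kept with filterByExpr (minimum count 10, total 15), scaled by TMM and tested with edgeR 4.0.16 (quasi-likelihood, two-sided), with Benjamini-Hochberg adjustment over all genes and a threshold of 0.05. SE is the log2 fold change divided by the root of its F statistic. A second edgeR test asked for any difference among the 3 lines of a genotype over their 9 cultures. The fits were tested on simulated counts. Alternatives used DESeq2 1.42.0, limma 3.58.1, other scalings, filters and blocks, and each line left out. Exon lengths, coordinates and exon overlaps came from GENCODE M21 (GRCm38), which holds 34490 of the 35275 gene IDs. No count column lacked a sample.

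The members and lists were chosen with earlier results of these data known. Every member is named, with values of each line for the 10 subunit and IκB genes, the members called, and the 5 highest and 5 lowest fold changes of the upstream genes and of the induced targets. Values of other members follow the same form.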

Additional observations from a re-analysis of the deposited data

Results flagged for a closer look

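Over the 9 cultures of each genotype, 94 sets of values (47 members in 2 genotypes) were examined for a lone high or low culture by Dixon's criterion, and 2 were flagged. For independent values, chance alone flags about 1 in 20 sets. The 9 cultures of a genotype are grouped by line and are not independent, so that rate does not apply here. Over the members, the median share of variation was 44.6% between lines and 3.84% between cultures. The number of flags was therefore not judged against chance. *Birc2* was 23.4 CPM in culture 2 of line 2 of the *Nf1/Cdkn2a* dKO, with the next highest culture of that genotype at 20.2 CPM. *Icam1* was 0.686 CPM in culture 1 of line 1 of the *Nf1/Cdkn2a* dKO, with the next highest at 0.272 CPM, at a level of a few reads per culture (14 counts in that culture).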

How the results depend on the processing

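The number of members called between genotypes depended on the test. It was 1 with edgeR on the 6 lines, and 17 with DESeq2 on the 6 lines, 21 with limma-voom, 33 with edgeR on the 18 cultures and 33 with DESeq2 on the 18 cultures. The last 2 treat cultures of 1 tumor as independent. Over all genes the same settings gave 265, 2171, 2173, 6087 and 6409 calls, and over the 83 other pathway genes 3, 18, 14, 46 and 48. Other pathway calls were 5 with total counts and 5 with no filter. With 1 line left out, members called ranged from 0 to 1, all genes from 0 to 172 and other pathway genes from 0 to 2. Genes at an unadjusted p under 0.05 were 2638 without line 1 of the *Nf1/Cdkn2a* dKO, where the adjusted count was 0.

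Same-numbered lines of the 2 genotypes share only a number. Their deviations from the genotype means correlated at -0.117, -0.13 and -0.0832 over 15207 genes. With line number as a replicate block edgeR called 0 members, 0 other pathway genes and 0 genes in all, with 2731 genes at an unadjusted p under 0.05. With culture number as a block over the 18 cultures it called 33 members, 43 other pathway genes and 5676 genes. Cultures with the same number correlated between -0.0955 and 0.147.

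Of the 30 members given with their values by rule, 29 kept the sign of the log2 fold change in all settings that gave a value. *Nfkbiz* was 0.10 without line 1 of the *Nf1/Cdkn2a* dKO and ranged from -0.19 to 0.10 with 1 line left out. Apart from the subunit and IκB genes, these 30 were the extremes of their group, a choice that favors a kept sign. Outside the 30, the sign reversed in some setting for *Birc2*, *Birc3*, *Gch1*, *Ier2*, *Ikbkb*, *Klf2*, *Sphk1* and *Vcam1*. The other tested members outside the 30 kept theirs. *Gch1* moved from -0.29 to 1.11 without line 1 of the *Nf1/p53* dKO. Scaling by total counts moved the median of all genes from -0.02 to -0.16. The median of the members stayed within 0.18 of -0.05 in every setting, and calls among lines of a genotype stayed within 1.5 times. Genes of a few counts, such as *Tnf* and *Icam1*, are limited by depth. Gene counts say nothing of NF-κB protein or its activity. The cause of the differences between tests was not tested.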

Other observations

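Ligand and receptor genes upstream of NF-κB stood on opposite sides in 2 cases that were picked after their values were seen. *Il1rl1*, which encodes the receptor of IL-33, was at 194, 302 and 81.6 CPM across the *Nf1/p53* dKO lines, against 393, 1769.9 and 1546 CPM across *Nf1/Cdkn2a* dKO lines (log2 fold change 2.68 ± 0.69, adjusted p = 0.095), while *Il33* itself was higher in every *Nf1/p53* dKO line (adjusted p = 0.0824). *Tnfsf11*, the gene of RANK ligand, was at 2.73, 7.27 and 1.51 CPM and 0.321, 0.101 and 0.172 CPM (log2 fold change -4.27 ± 0.80, adjusted p = 0.0547). *Tnfrsf11a*, its receptor gene, was at 1.62, 0.481 and 0.263 CPM and 4.32, 8.77 and 8.49 CPM (adjusted p = 0.083). None of the 4 passed the threshold of 0.05, and the genotypes did not overlap for any of them. Without line 3 of the *Nf1/p53* dKO the log2 fold changes were 2.32 for *Il1rl1* and -3.97 for *Il33*. Those of *Tnfsf11* and *Tnfrsf11a* were -4.65 and 2.78 without that line.

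Of the induced genes outside the members, 2 more were picked after their values were seen. *Irf1*, an interferon-regulatory factor gene, was at 32, 29.9 and 58.9 CPM across the *Nf1/p53* dKO lines, against 10.8, 11.4 and 15.9 CPM across *Nf1/Cdkn2a* dKO lines (log2 fold change -1.66 ± 0.32, adjusted p = 0.0572). *Bcl2l1*, which encodes the survival protein Bcl-xL, was at 90.8, 97.4 and 62.1 CPM and 157, 173 and 163 CPM (log2 fold change 0.98 ± 0.19, adjusted p = 0.0595). Line 3 of the *Nf1/p53* dKO was the highest for *Irf1* and the lowest for *Bcl2l1*. Without that line their log2 fold changes were -1.28 and 0.81.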
